A study of Mus musculus with 6 samples.

Results

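Hox genes encode homeodomain transcription factors that give cells their position along the body axis. They were followed here in mouse breast cancer cells sorted by CD24 and CD29, surface proteins encoded by Cd24a and Itgb1. Members were all probe sets whose platform annotation gave exactly 1 gene symbol made of Hox, a cluster letter and a paralogue number, which found 48 of 45101 probe sets, for 33 of 18193 genes. Hox genes with no such probe set were given no gene value, and probe sets shared by 2 Hox genes are described at the end. The Hoxa cluster had 16 probe sets for 9 genes, Hoxb 11 for 9, Hoxc 11 for 7 and Hoxd 10 for 8. Of the 33 genes, 22 were read by 1 probe set, 8 by 2, 2 by 3 and 1, Hoxa3, by 4.

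The 6 Affymetrix Mouse430_2 arrays held RNA of CD24+CD29+ cells (3 arrays) and CD24-CD29- cells (3 arrays). The labels call both groups breast cancer stem cells grown in serum-containing medium, and name no cell line, mouse strain, genotype, age or drug. The series' design text speaks of 3 independent sample sets, but nothing says that they were separate cultures, sorts or animals, so p-values measure the spread between these arrays, part of which may be technical. The values are log2 intensities made by the authors with RMA, which corrects for background and combines the probes of each probe set into 1 value. Its usual between-array step gives all arrays like distributions, but the lower quartiles of the deposited arrays ran from 5.20 to 5.41. Epithelial markers were abundant in both groups, with Epcam at 14.11 ± 0.02 in CD24+CD29+ and 14.13 ± 0.02 in CD24-CD29- cells (mean ± SD, n = 3), and fibroblast markers were present too, with Postn at 14.26 and 13.83 and Dcn at 12.74 and 11.59. Fap, another fibroblast marker, was at 6.13 and 5.65. The leukocyte marker Ptprc was at 4.85 and 4.94 but Csf1r at 6.75 and 7.63, and the endothelial marker Pecam1 was at 4.87 and 5.00.

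Mammals carry 4 Hox clusters, Hoxa to Hoxd, each a row of genes on a different chromosome. Genes at the same place in different clusters form a paralogue group, numbered 1 to 13. Low numbers pattern anterior and high numbers posterior parts of the embryo, and the genes are switched on in that order. Trithorax and Polycomb proteins keep the clusters active or silent, retinoic acid and Cdx factors act on them from upstream, and Pbx and Meis proteins bind DNA together with Hox proteins. In the mammary gland, paralogue group 9 genes are needed for its growth in pregnancy, and Hoxa5 is known in breast cells as an activator of the p53 gene.

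Most Hox probe sets gave dim signals in both sorted groups. Detection calls were not used here, and 77 probe sets of olfactory and vomeronasal receptor genes, which work in sensory neurons, served instead as a guide to the signal of genes with little or no RNA. Their means over the 6 arrays ran from 4.23 to 6.71 with a median of 5.19, and their 95th percentile was 6.29. Hox probe sets ran from 4.22 to 6.66 with a median of 5.48. The 95th percentile was exceeded by 9 Hox probe sets, of Hoxa4, Hoxa5, Hoxa9, Hoxb2, Hoxb3 (both of its probe sets), Hoxb4, Hoxc4 and Hoxd9. The other 39 probe sets, among them every probe set of 25 genes, lay below it, and none exceeded the highest receptor probe set. Probes differ in affinity, so a value in this range does not show that a gene was silent.

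Each group was also read alone. Against the 95th percentile of the receptor probe sets in the same group, 6.11 in CD24+CD29+ and 6.38 in CD24-CD29- cells, 10 and 6 Hox probe sets were above it. Hoxb2, Hoxb4, Hoxc4 and Hoxa3 were above it in CD24+CD29+ cells and not in CD24-CD29- cells, although the Hoxa3 values themselves were the lower ones in CD24+CD29+ cells. Hoxb2 and Hoxc4 in CD24+CD29+ cells and a probe set of Hoxa5 in CD24-CD29- cells were also above the highest receptor probe set of their group, at 6.56 and 6.86. The plot of Hox genes by array shows these levels.

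**Figure D1:**
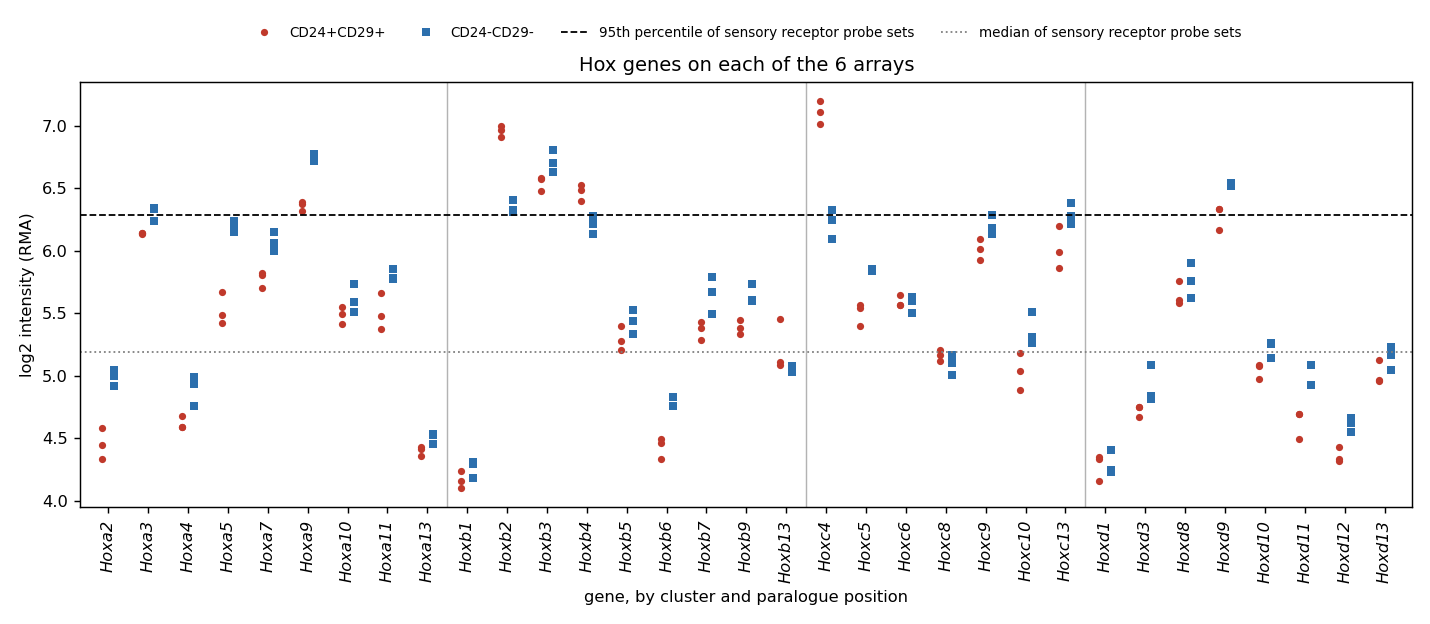
Log2 intensity (RMA) of the probe set standing for each of the 33 Hox genes on each array, with CD24+CD29+ arrays as red circles and CD24-CD29- arrays as blue squares, ordered by cluster and paralogue number, and with the 95th percentile (6.29, dashed) and the median (5.19, dotted) of receptor probe sets as lines. Hoxb2 and Hoxc4 in CD24+CD29+ cells stand highest, and most genes lie below the dashed line in both groups.

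The comparison of the sorted groups asked which Hox genes differed. On the deposited scale 3 Hox genes were higher in CD24+CD29+ cells (Hoxc4, Hoxb2 and Hoxb4), 19 were lower and 11 did not pass, with a median difference of -0.18. With the arrays scaled to the mean of their probe sets for poly-A control RNAs the direction was opposite, with a median of 0.79. Whether these control RNAs were added to the samples, and in equal amounts, was not tested. Every difference is given as the CD24+CD29+ mean less the CD24-CD29- mean, in log2 units and tested with limma, and a gene passed at a Benjamini-Hochberg adjusted p under 0.05 over all genes. In bulk RNA, fewer cells that express a gene and less of its RNA per cell cannot be told apart. Over all genes 70.8% passed, 34.4% as higher and 36.5% as lower, so the Hox share of 66.7% was near the background, while its split between directions was 9.09% higher and 57.6% lower. The arrays of the groups did not overlap for 73.6% of all genes, 35.9% with CD24+CD29+ above and 37.8% below, and for 4 Hox genes above and 21 below. No Hox gene or probe set differed by 2-fold or more, against 4.67% of all genes and 3.43% of all probe sets. Hox differences ran from -0.67 to 0.88.

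The other dim genes were split in a like way. Among all genes, those with dim signals were more often lower than higher in CD24+CD29+ cells on the deposited scale: for means of 5 to 6, 2499 of 4416 genes were lower and 363 higher (median -0.22), and 8 of the 15 Hox genes in that range were lower and none higher (median -0.17). For means of 4 to 5, 755 of 1866 genes were lower and 96 higher (median -0.13), and of 9 Hox genes 5 were lower and none higher (median -0.25). For means of 6 to 7, 1152 of 2515 genes were lower and 705 higher, and of 9 Hox genes 6 were lower and 3 higher. The receptor probe sets moved likewise. In a fit over 45037 probe sets, 39 of the 77 receptor probe sets were lower and 3 higher (median -0.21), and 26 of the 48 Hox probe sets were lower and 4 higher (median -0.18), where 63.9% of all probe sets passed, 34.8% as lower and 29.2% as higher. The groups did not overlap for 68.2% of all probe sets, with CD24+CD29+ above for 31.1% and below for 37.1%, and for 5 and 29 of the Hox probe sets.

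The shift was smaller after a further normalization between the arrays. Quantile normalization gave 6 higher and 11 lower Hox genes with a median of -0.10, and cyclic loess gave 6 and 10 with a median of -0.09. Of all genes 64.8% passed under either. The receptor probe sets then had medians of -0.10 and -0.08. Under either, Hoxb13, Hoxc6 and Hoxc8 joined the higher genes, with differences of 0.30, 0.16 and 0.20 by quantile normalization against 0.16, 0.02 and 0.07 as deposited, none of which had passed. Hoxc6 depended on its probe sets as well, since their mean gave -0.24 and passed as lower. Hoxa3, Hoxa11, Hoxb7, Hoxb9, Hoxc9, Hoxc10, Hoxc13 and Hoxd10 no longer passed as lower under either normalization, and Hoxd12 under cyclic loess. Over all genes the median difference was -0.04 as deposited and 0.94 with poly-A scaling, which made all 33 Hox genes higher. Under that scaling 98.6% of all genes passed. Higher and lower below refer to the values as deposited, and thus to a gene's place among the others.

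**Figure D2:**
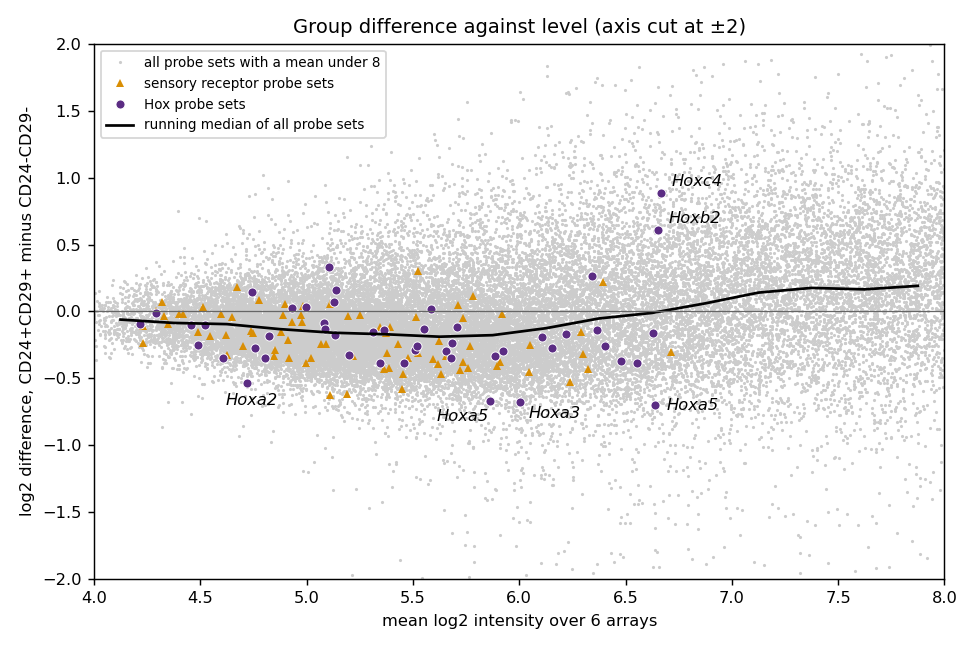
Log2 difference (CD24+CD29+ minus CD24-CD29-, as deposited) against mean log2 intensity over the 6 arrays for all probe sets with a mean under 8 (grey), receptor probe sets (orange triangles) and Hox probe sets (purple circles), with the running median of all probe sets as a black line. Hox probe sets mostly follow the line, as the receptor probe sets do, while Hoxc4 and Hoxb2 lie above it, and Hoxa5, a probe set of Hoxa3 and Hoxa2 below it.

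Hoxc4 had the largest difference of the Hox genes. It lies at the end of its cluster with the lowest paralogue numbers and is known in B cells as an activator of the antibody-diversifying deaminase gene. Its probe set read 7.01, 7.20 and 7.11 on the CD24+CD29+ arrays and 6.33, 6.25 and 6.09 on the CD24-CD29- arrays. The groups did not overlap, and every CD24+CD29+ array was above every CD24-CD29- array. The difference was 0.88 (SE 0.07, 1.85-fold, limma adjusted p = 2.8e-05), which put Hoxc4 at percentile 95.7 of the differences in its level range of 6 to 7. It has 1 probe set, and it stayed past the threshold, between 0.82 and 0.94, in the 12 alternatives that neither scale to poly-A controls nor choose other probe sets.

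Hoxb2, a regulator of hindbrain patterning, was the other clear rise. It read 6.91, 7.00 and 6.96 in CD24+CD29+ cells against 6.33, 6.31 and 6.41 in CD24-CD29- cells, again without overlap. The difference was 0.61 (SE 0.05, 1.53-fold, limma adjusted p = 1.7e-05), at percentile 90.3 of the genes of like level. Its only measured paralogue, Hoxa2, which patterns the second pharyngeal arch and hindbrain, went the other way. Hoxa2 was lower by 1.45-fold (-0.53, SE 0.07), at percentile 1.66 of the range of 4 to 5, but its values of 4.34 to 4.58 and 4.92 to 5.05 lay within the range of receptor probe sets.

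Hoxb4, which expands blood stem cells when overexpressed, was split between its probe sets. The brighter read 6.40, 6.53 and 6.49 in CD24+CD29+ cells and 6.14, 6.28 and 6.21 in CD24-CD29- cells, a difference of 0.26 (SE 0.05, limma adjusted p = 0.0034). The dimmer read 5.53 to 5.63 against 5.72 to 5.87, a difference of -0.23 that passed in the other direction. Their mean gave 0.02 and did not pass, so the 2 probe sets give no common direction for Hoxb4.

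Hoxa5 had the largest fall, and both of its probe sets showed it. The probe set standing for the gene read 5.49, 5.67 and 5.43 in CD24+CD29+ cells against 6.21, 6.24 and 6.15 in CD24-CD29- cells. The difference was -0.67 (SE 0.07, 1.59-fold, limma adjusted p = 7.7e-05), at percentile 2.65 of the differences in the range of 5 to 6. The other probe set, of a kind (_x_at) that can cross-hybridise, read 6.17 to 6.45 against 6.91 to 7.08, a difference of -0.70. Neither overlapped between the groups. It was 0.30 under poly-A scaling. In the 13 other alternatives that kept Hoxa5 among the tested genes it stayed past the threshold, between -0.74 and -0.54.

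The window upstream of the transcript start is shown for Hoxc4 and Hoxa5, the members with the largest difference in each direction. Each is 250 bases long, 5′ to 3′ on the gene's strand, from RefSeq on the mouse build GRCm38.p6, at chr15:103034145-103034394 (plus strand) for Hoxc4 and chr6:52204588-52204837 (minus strand) for Hoxa5. Capitals mark the longest run of bases that both windows hold on their own strand, a comparison chosen after the sequences were seen.
Hoxc4: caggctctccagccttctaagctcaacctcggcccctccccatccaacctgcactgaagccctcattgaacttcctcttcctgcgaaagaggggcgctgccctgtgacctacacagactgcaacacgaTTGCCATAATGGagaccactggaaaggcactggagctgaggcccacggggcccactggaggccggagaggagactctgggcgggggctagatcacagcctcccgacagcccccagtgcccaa
Hoxa5: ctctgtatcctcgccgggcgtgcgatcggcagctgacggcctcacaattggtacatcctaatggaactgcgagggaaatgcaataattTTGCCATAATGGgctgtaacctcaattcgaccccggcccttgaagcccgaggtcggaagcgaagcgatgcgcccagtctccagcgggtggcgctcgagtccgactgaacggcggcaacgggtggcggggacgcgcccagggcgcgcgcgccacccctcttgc

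The shared run TTGCCATAATGG is 12 bases long and begins 122 bases upstream of the start in Hoxc4 and 162 in Hoxa5. On either strand it was found in 2 of 32851 upstream windows of the table (0.00609%), these 2. The run was taken from these windows, so a count of at least 2 was fixed in advance. How often any run of 12 bases occurs was not tested, and nothing is concluded from the count. The genes that hold it differed in opposite directions between the sorted groups, and the arrays do not show which start was used. The windows also differed in CG dinucleotides, with 8 in Hoxc4 and 28 in Hoxa5, against a median of 6 over all windows and 13 over the 21 windows of 19 measured Hox genes. Neither window held TGATNNAT, a Hox and Pbx type of motif, or TGACAG, a Meis type of motif, on either strand. These letters were found in 3 and 2 of the 21 Hox windows and in 7.68% and 15.9% of all windows.

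Hoxa9, a paralogue group 9 gene and a known leukaemia gene, was lower on its brighter probe set. It read 6.39, 6.37 and 6.32 in CD24+CD29+ cells and 6.72, 6.75 and 6.78 in CD24-CD29- cells, with no overlap (-0.39, SE 0.04, 1.31-fold, limma adjusted p = 0.00011). Its second, dim probe set overlapped between the groups (difference 0.03), and the mean of both gave -0.18, which passed. Poly-A scaling turned the main difference to 0.58. Hoxd9 read 6.16, 6.34 and 6.33 against 6.52, 6.54 and 6.54, a difference of -0.26 (SE 0.06, limma adjusted p = 0.0046), or 0.72 under poly-A scaling. Hoxb9 and Hoxc9 were lower too (-0.26 and -0.19), so that all 4 members of paralogue group 9 were lower as deposited. None was extreme among genes of like level. Hoxa9 was at percentile 25.1, Hoxd9 at 38.3 and Hoxc9 at 44.6 of the range of 6 to 7, where 45.8% of all genes were lower. Hoxb9 was at percentile 43.5 of the range of 5 to 6, where 56.6% were lower. Under quantile normalization and cyclic loess Hoxb9 and Hoxc9 did not pass.

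The remaining genes with a probe set above the 95th percentile were Hoxb3 and Hoxa4, and the call of each depended on the probe set or the setting. Hoxb3 read 6.58, 6.58 and 6.48 in CD24+CD29+ cells and 6.63, 6.70 and 6.80 in CD24-CD29- cells (-0.16, SE 0.06, limma adjusted p = 0.035). The groups were adjacent but did not overlap. The call was lost when any 1 array other than replicate 1 of CD24-CD29- was left out (-0.18 to -0.12, adjusted p 0.053 to 0.12), and under median centring or a trended variance. Its second probe set, at 6.26 to 6.32 against 6.55 to 6.73, was lower (-0.37), and the mean of both gave -0.27, which passed. Hoxa4 was lower on a dim probe set, at 4.59, 4.68 and 4.59 against 4.76, 4.93 and 4.99 (-0.27, SE 0.07). Its probe set above the 95th percentile, an _x_at, read 6.18, 6.38 and 6.32 against 6.54, 6.46 and 6.31, overlapped between the groups and did not pass (-0.14).

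Of the dimmer genes, Hoxa3 and Hoxc5 showed how far probe sets of a gene can differ. Hoxa3, needed for thymus and parathyroid development, was lower on 3 of 4 probe sets (-0.17, -0.39 and -0.68), and the fourth did not pass (-0.10). The largest of these came from a probe set ending in _s_at, a kind that can read more than 1 transcript, at 5.62, 5.61 and 5.76 against 6.33, 6.42 and 6.28. Hoxc5 had 1 probe set that was lower (-0.35), 1 that was higher (0.33, with 5.27 to 5.28 against 4.85 to 5.08) and 1 that did not pass (0.03), and their mean gave 0.00. Hoxc6 did not pass on the probe set standing for it (0.02) and was lower on its others (-0.39 and -0.34). Transcripts of neighbouring Hox genes overlap and share exons, so such probe sets may read RNA of more than 1 gene. Of the 11 genes with several probe sets, Hoxb4 and Hoxc5 had calls in opposite directions.

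By cluster, the higher genes were Hoxb2 and Hoxb4 of Hoxb and Hoxc4 of Hoxc. Beside the counts of lower genes below, 36.5% of all genes were lower as deposited. Among all genes with means of 4 to 5, 5 to 6 and 6 to 7, 40.5%, 56.6% and 45.8% were lower. In Hoxa 7 of 9 genes were lower as deposited (median -0.29, or 0.68 under poly-A scaling): besides Hoxa2, Hoxa3, Hoxa4, Hoxa5 and Hoxa9 these were Hoxa7 (-0.29) and Hoxa11 (-0.30), a uterus and limb gene. Hoxa10 (-0.13) and Hoxa13 (-0.10) did not pass. In Hoxb 4 of 9 were lower, Hoxb3, Hoxb6 (-0.35), Hoxb7 (-0.29) and Hoxb9, and Hoxb1, Hoxb5 and the prostate gene Hoxb13 did not pass. Hoxb13 read 5.09, 5.46 and 5.11 in CD24+CD29+ and 5.03 to 5.08 in CD24-CD29- cells, so that 1 array made its group's spread the second largest of the Hox probe sets' (SD 0.21).

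In Hoxc 4 of 7 were lower as deposited, Hoxc5, Hoxc9, Hoxc10 (-0.32) and Hoxc13 (-0.27), a hair follicle gene, while Hoxc6 and Hoxc8 did not pass. In Hoxd 4 of 8 were lower, Hoxd9, Hoxd10 (-0.17), Hoxd11 (-0.35) and Hoxd12 (-0.25), and Hoxd1, Hoxd3, Hoxd8 and Hoxd13 did not pass. Hoxd10, a known target of the miRNA miR-10b in breast cancer cells, read 4.97 to 5.09 against 5.15 to 5.26. All genes with means of 4 to 5, 5 to 6 and 6 to 7 had medians of -0.13, -0.22 and -0.13 as deposited. Cluster medians were -0.29 for Hoxa, -0.14 for Hoxb, -0.19 for Hoxc and -0.18 for Hoxd. Quantile normalization gave -0.17, -0.04, -0.10 and -0.06. Poly-A scaling gave 0.68, 0.84, 0.78 and 0.79, adding 1 constant to every gene and so keeping their order. The difference between clusters was not tested.

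By paralogue position, all 3 higher genes belonged to groups 2 and 4, in the anterior part of the clusters, although the probe sets of Hoxb4 disagree and with the mean of probe sets 2 genes, Hoxb2 and Hoxc4, were higher. Hoxb2, Hoxb4 and Hoxc4 all had means of 6 to 7, where 28.0% of all genes were higher. For means of 5 to 6 and 4 to 5 these shares were 8.22% and 5.14%. The shares of all genes that were lower were 45.8% for means of 6 to 7, 56.6% for 5 to 6 and 40.5% for 4 to 5. The medians of all genes in these ranges were -0.13, -0.22 and -0.13. Median levels of groups 1 to 4, 5 to 8 and 9 to 13 were 5.52, 5.58 and 5.36. The part of signal level in the pattern by position was not tested. Of the 10 genes of groups 1 to 4, 3 were higher and 4 lower (median -0.13). Of the 9 genes of groups 5 to 8, none was higher and 5 were lower (median -0.29), and of the 14 genes of groups 9 to 13, none was higher and 10 were lower (median -0.25). Under either quantile normalization or cyclic loess, Hoxc6, Hoxc8 and Hoxb13 were also higher, so the absence of higher genes past group 4 holds as deposited and not under these normalizations. The lower genes of groups 9 to 13 then numbered 4 with quantile normalization and 3 with cyclic loess, of 14. Group 1 (Hoxb1 and Hoxd1) and group 8 (Hoxc8 and Hoxd8) had no call as deposited. Group 4 held members in both directions, with Hoxc4 and Hoxb4 higher and Hoxa4 lower, as did group 2 with Hoxb2 and Hoxa2.

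**Figure D3:**
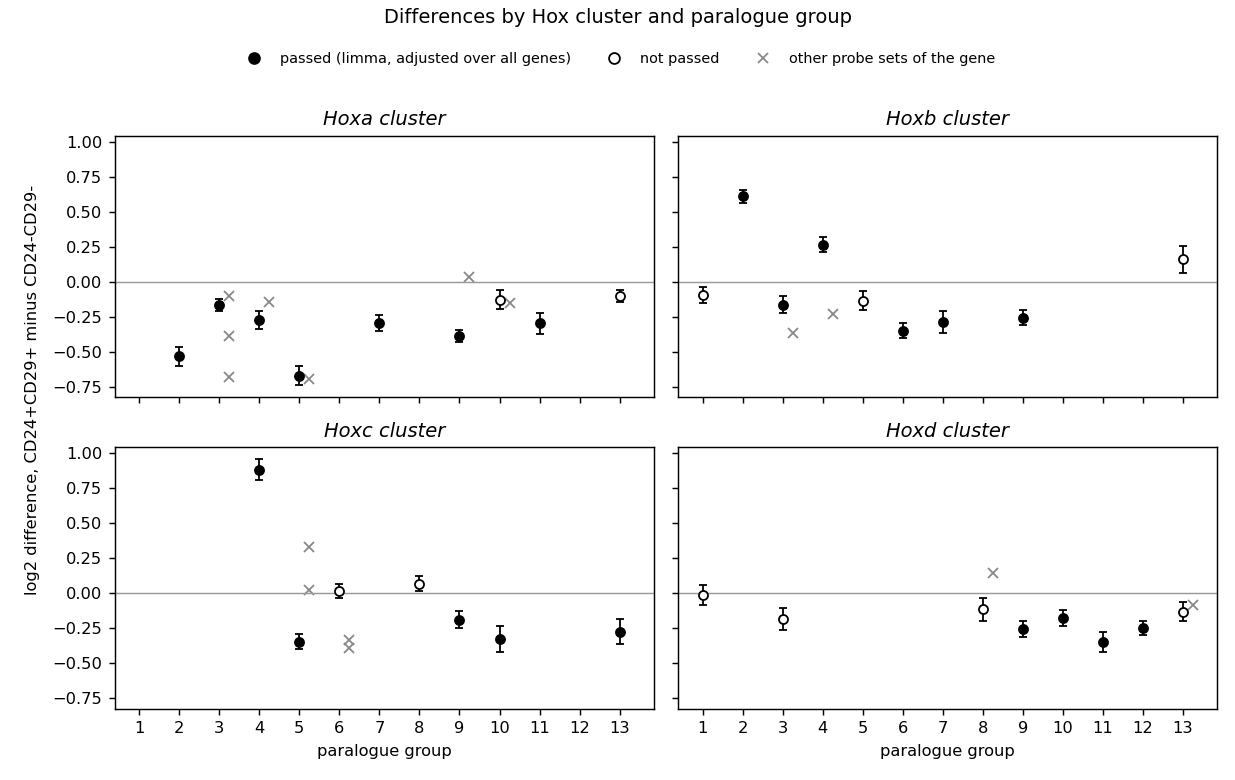
Log2 difference (CD24+CD29+ minus CD24-CD29-, as deposited) by paralogue group in each Hox cluster, with filled circles for genes that passed, open circles for genes that did not, bars for the SE of the fit and crosses for the genes' other probe sets. The 3 genes above 0 that passed are Hoxb2, Hoxb4 and Hoxc4, in paralogue groups 2 and 4, and all genes are higher under poly-A scaling.

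**Figure D4:**
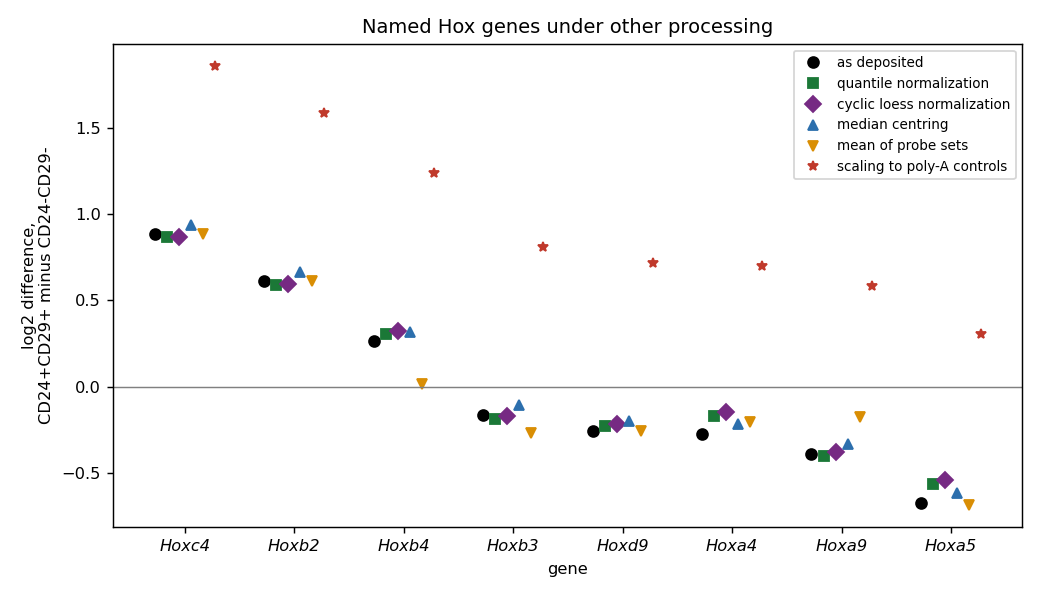
Log2 difference of the 8 named Hox genes as deposited and under 5 other ways of processing. Hoxc4, Hoxb2 and Hoxa5 stay far from 0 under quantile normalization, cyclic loess and median centring (Hoxc4 and Hoxb2 have 1 probe set, so its mean cannot move them), Hoxb4 falls to 0.02 with the mean of its probe sets, and every gene is above 0 with poly-A scaling.

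Genes that work with Hox proteins or act on Hox clusters were mostly brighter, though some were as dim as Hox genes. Bright genes in general were more often higher than lower in CD24+CD29+ cells as deposited. Of 9380 genes with a mean of 7 or more, 54.2% were higher and 23.8% lower (median 0.18). Of the 34 cofactors and regulators at that level, 24 were higher and 4 lower (median 0.26), and nothing particular to them is read from these counts. Of 9 TALE homeodomain cofactors 8 were measured, and 4 were higher, 1 was lower and 3 did not pass (median 0.30). Meis2 was higher by 2.26-fold (1.18, SE 0.07), with 7.08, 7.20 and 6.98 against 5.91, 6.01 and 5.82. Pbx3 was higher by 1.92-fold (0.94, SE 0.04), at 11.14 ± 0.03 against 10.20 ± 0.02 (SD, n = 3). Meis1, the partner of Hoxa9 in leukaemia, was higher by 1.51-fold (0.59, SE 0.04), although 1 of its 3 probe sets was lower and their mean gave 0.19. Pknox1 was higher (0.54), and Meis3, at 6.01 a dim gene, was lower (-0.20), a call lost under quantile normalization, cyclic loess and median centring. None of these groups overlapped except those of Meis3.

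Of 9 genes on the trithorax side, which keep Hox clusters active, 7 were higher, 1 was lower and 1 did not pass (median 0.44), and with quantile normalization 6 were higher and 2 lower (median 0.28). Kmt2a, the histone H3 lysine 4 methyltransferase MLL that maintains Hox expression, was higher by 2.08-fold, at 10.92, 10.90 and 10.92 against 9.88, 9.83 and 9.86 (1.06, SE 0.04, limma adjusted p = 7.8e-07). The demethylase gene Kdm6b and the complex subunit gene Ash2l were higher by 1.60-fold and 1.54-fold (0.68 and 0.62, or 0.21 and 0.41 with the mean of probe sets). Kdm6a, a demethylase gene of the same family as Kdm6b, was lower (-0.48). All 9 were above 7 in level, and none of the 8 that passed overlapped between the groups.

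Of 18 Polycomb genes, which keep clusters silent, 17 were measured, and 9 were higher, 2 lower and 6 did not pass (median 0.15). Quantile normalization gave 7 and 4 (median 0.06), cyclic loess 6 and 3 (median 0.07), and the mean of probe sets 5 and 4 (median 0.01). Jarid2, a gene of an accessory subunit of the Polycomb complex PRC2, was lower by 1.94-fold, at 9.37, 9.16 and 9.20 against 10.24, 10.29 and 10.07 (-0.96, SE 0.08). Under poly-A scaling its difference was 0.01 and did not pass. Phc2 was higher by 1.82-fold (0.86, SE 0.04) and Phf19 by 1.57-fold. With its brightest probe set, an _x_at, Phc2 was at 0.26, and 1 of 2 Phf19 probe sets was lower, their mean of 0.08 not passing. The PRC2 core genes Ezh2, Suz12 and Eed were higher by small amounts, 0.15, 0.24 and 0.25, and 1 Suz12 probe set was lower.

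Of 16 upstream regulators 15 were measured, and 9 were higher, 5 lower and 1 did not pass (median 0.24, or 0.10 with 7 higher and 3 lower under quantile normalization). The retinoic acid receptor gene Rarg, the insulator protein gene Ctcf and the replication licensing inhibitor gene Gmnn were higher by 1.57-fold, 1.58-fold and 1.59-fold, and with the mean of probe sets Rarg was at 0.35 against 0.66. The hindbrain factor Egr2, a direct activator of Hoxb2, was lower (-0.59), while Hoxb2 was higher. The caudal genes Cdx1 and Cdx2 were lower (-0.28 and -0.47) and Cdx4 higher (0.37), and all 3 were dim. Over the 4 lists 77.6% of genes passed, near the 70.8% of all genes, 29 of 49 as higher and 9 as lower. Quantile normalization gave 24 and 9, and the mean of probe sets 24 and 13. Under poly-A scaling 48 were higher and none lower.

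**Figure D5:**
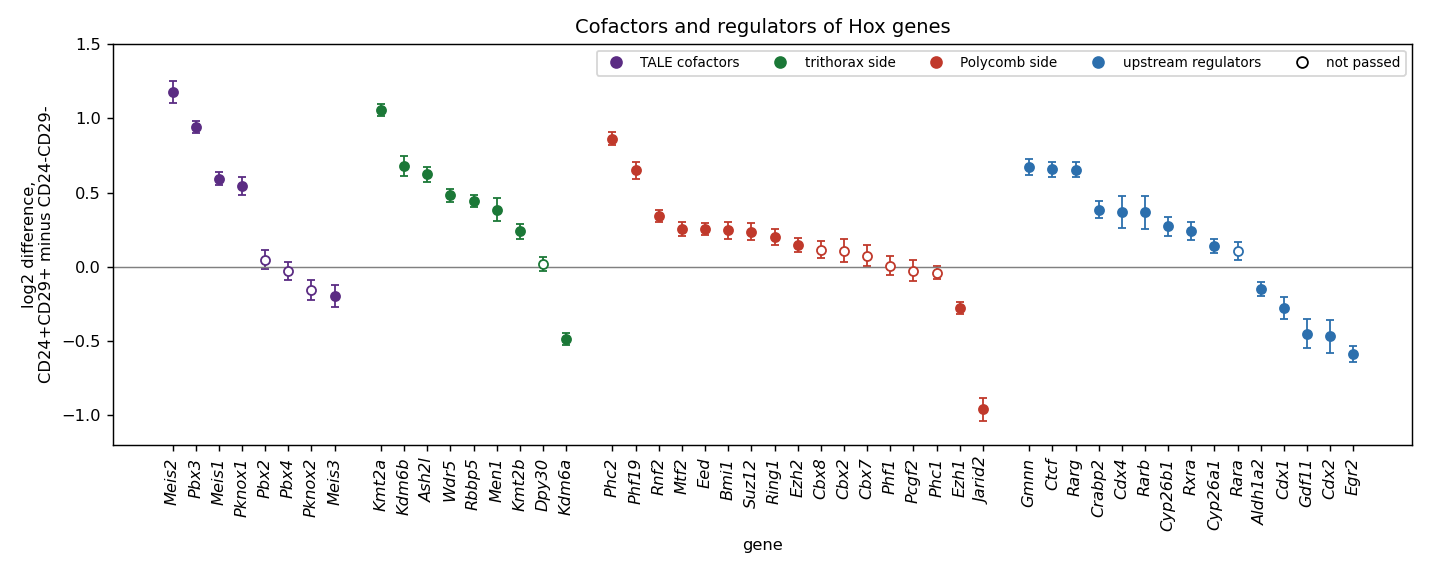
Log2 difference (CD24+CD29+ minus CD24-CD29-, as deposited) of 49 cofactors and regulators of Hox genes in 4 lists, with bars for the SE of the fit, filled circles for genes that passed and open circles for those that did not. Meis2 (1.18) and Kmt2a (1.06) lie highest and Jarid2 (-0.96) lowest. Under poly-A scaling 48 of the 49 are higher.

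Of 35 genes and noncoding RNAs in or beside the clusters 16 were measured, and 5 were higher, 10 lower and 1 did not pass (median -0.24). Of all genes 34.4% were higher and 36.5% lower. Of the 8 with a mean of 7 or more, 5 were higher and 2 lower (median 0.30), where 54.2% of all genes were higher and 23.8% lower. All the dimmer ones were lower, and of all genes with means of 5 to 6, 56.6% were. With quantile normalization or cyclic loess 4 of the 16 were higher and 6 lower (median -0.10 in both). The noncoding RNAs inside the clusters were dim and lower, Hoxb5os with a difference of -0.52, Hoxa11os of -0.27 and Hoxd3os1 of -0.23, with 1 Hoxd3os1 probe set higher. The homeobox genes at the posterior ends of Hoxa and Hoxd, Evx1 and Evx2, were lower (-0.38 and -0.49). The bright neighbours did not move together. Lnpk, which shares regulatory elements with Hoxd in limbs, was higher by 2.01-fold (1.01, SE 0.06), with 1 of 3 probe sets lower and their mean at 0.33, and Cbx5 beside Hoxc by 1.56-fold, with 1 of 5 probe sets lower. Tax1bp1 and Hibadh near Hoxa were lower (-0.63 and -0.62), Tax1bp1 by less with the mean of its probe sets (-0.29), and Skap2, next to Hoxa, did not pass (0.03). Under poly-A scaling all 16 were higher.

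Among markers of other cells, those of fibroblasts differed most between the groups as deposited. Of all genes 34.4% were higher and 36.5% lower as deposited. All 10 fibroblast markers were higher in CD24+CD29+ cells, with a mean level of 9.38 to 9.45 on those arrays against 8.47 to 8.49. The largest were Col1a2 (4.07-fold), Col3a1 (3.31-fold) and Lum (2.78-fold). Of 9 measured leukocyte markers 6 were lower and none higher, with mean levels of 5.53 to 5.63 against 5.89 to 5.97. The median level of the leukocyte markers was 5.52. Of all genes with means of 5 to 6, 56.6% were lower and 8.22% higher, so nothing particular to leukocytes is read from this count. Of 8 endothelial markers 2 were higher and 1 lower, with mean levels of 5.13 to 5.20 against 5.08 to 5.22. Leukocyte means other than those of Csf1r, Cd3e and Adgre1, and endothelial means other than that of Kdr, lay below the 95th percentile of the receptor probe sets. The mean of the fibroblast marker Fap (5.89) did too, and Lum in CD24-CD29- cells (6.00) lay below that group's 6.38. Of 10 epithelial markers 3 were higher and 5 lower, so the epithelial markers also differed between the groups. Krt14 (0.99), Krt5 (0.65) and Krt7 (0.38) were higher. Krt19 (-0.95), Cldn4 (-0.53), Krt18 (-0.42), Krt8 (-0.17) and Cldn7 (-0.13) were lower, and Epcam and Cdh1 did not pass. Under poly-A scaling Krt19 (0.03) and Csf1r (0.10) did not pass, and the leukocyte markers Cd3e (0.54) and Ms4a1 (0.47) were higher. Under quantile normalization these 4 stayed lower. Col1a2, Col3a1 and Lum stayed higher under both. The endothelial marker Tek was lower as deposited but did not pass under quantile normalization. Cdh5, higher as deposited, did not pass with the mean of its probe sets. The part of fibroblast content or of any other cell type in the Hox differences was not tested.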

How the data were processed

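RNA of 2 sorted groups, 3 arrays each, was measured on Affymetrix Mouse430_2 arrays. The deposited values are log2 intensities made by the authors with RMA and Partek, per the submitters' processing notes, with versions, settings and order not given in the sources used here. Pearson correlations across probe sets were 0.997 to 0.998 within groups and 0.974 to 0.979 between them. Gene names came from GEO's annotation of the platform and may be out of date. For each of 18193 genes, the brightest probe set annotated to that gene alone stood for it, and an _x_at probe set only where no other existed. Groups were taken from the titles. limma 3.58.1 in R 4.3.3 (lmFit, eBayes) was fitted without a block, over all genes for gene values and over 45037 non-control probe sets for other probe sets, with Benjamini-Hochberg adjustment and a threshold of 0.05. The fit was tested on simulated data. Alternatives were quantile, cyclic loess, median and poly-A scaling, a filter on the dimmest 40%, a trended variance, a replicate block, each array left out, and other probe sets for a gene. The number of arrays limits the precision. Median SE was 0.06 for Hox genes and for all genes. Hox genes were listed with their calls, and values on every array were given for those that passed and had a probe set above the receptors' 95th percentile. In other lists up to 3 of the largest changes were named, and further genes were chosen after their values were seen. Members and lists were chosen with earlier results of these data known.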

Additional observations from a re-analysis of the deposited data

How the results depend on the processing

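The Hox counts moved with the scaling. Against 3 higher and 19 lower Hox genes, quantile normalization gave 6 and 11, cyclic loess 6 and 10, poly-A scaling 33 and 0, and the filter on the dimmest 40% left 6 genes, 3 higher and 3 lower. Of all genes tested 64.8%, 64.8%, 98.6% and 79.8% passed in these settings. Against 4 higher and 26 lower probe sets the same settings gave 7 and 17, 7 and 15, 48 and 0, and, of 16 left, 3 and 12. Of the 49 cofactors and regulators, poly-A scaling made 48 higher and 0 lower, and the filter left 4 lower of 38. Under poly-A scaling differences turned positive for Hoxa5 (0.30), Hoxa9 (0.58), Hoxa4 (0.70), Hoxd9 (0.72) and Hoxb3 (0.81). Leaving out 1 array at a time gave 3 higher and 16 to 20 lower Hox genes. The titles number the arrays 1 to 3 in both groups, but the deviations of same-numbered arrays correlated at 0.22, -0.05 and 0.04, so the numbers were not taken as pairs. With the replicate block there were 3 higher and 20 lower genes and 4 and 26 probe sets, and among named genes the block ended the call of Hoxb3 (adjusted p = 0.067). The mean of probe sets ended that of Hoxb4 (0.02), and the brightest probe set that of Hoxa4 (-0.14). With the 99th percentile of receptor probe sets as the level, 6 Hox probe sets were above it. The cause of these changes was not tested, except that the filter tests fewer genes. RMA values of dim genes understate folds, which limits every Hox difference here.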

Other observations

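Beside the 48 members, 3 probe sets were annotated to a pair of Hox genes and entered no gene's value. The 2 shared by Hoxd4 and Hoxd3 were lower in CD24+CD29+ cells on the deposited scale, at 6.03 ± 0.06 against 6.21 ± 0.04 (difference -0.18, limma adjusted p = 0.019) and at 4.59 ± 0.02 against 4.86 ± 0.16 (difference -0.27, limma adjusted p = 0.014; mean ± SD, n = 3). The probe set shared by Hoxb8 and Hoxb7 read 5.50 ± 0.15 against 5.69 ± 0.12 and did not pass (limma adjusted p = 0.10). All 3 lay below the 95th percentile of the receptor probe sets.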
